A study of Mus musculus with 9 samples.

Results

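The Hox genes are the 39 rows, of 52459 in the count table, whose symbol is Hox with a cluster letter from a to d and a number. They were chosen by name alone, with no measured value. The RNA came from cells sorted by flow cytometry for the leptin receptor (LepR+), out of the non-hematopoietic cells that collagenase freed from the tibiae and femurs of C57B6 mice. The 3 conditions were middle-aged mice given sodium salicylate (52 weeks, here treated middle-aged), untreated middle-aged mice (52 weeks) and untreated young mice (12 weeks), with 3 libraries each. Sodium salicylate is an anti-inflammatory drug. Tibiae and femurs were digested without being kept apart as samples, so a level below is a mean over both bones. Whether the libraries of a condition came from separate animals is not stated, and p-values therefore measure only the spread between these samples. In bulk RNA, fewer cells that express a gene and less RNA of it per cell cannot be told apart.

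Hox genes encode homeodomain transcription factors and lie in 4 clusters, Hoxa to Hoxd. Genes at the same place in different clusters form a paralog group, numbered from 1 to 13 along the cluster. In the embryo, low-numbered groups are used toward the head and high-numbered groups toward the tail and the tip of the limb. In mouse mutants, loss of group 10 disturbs the femur, loss of group 11 the tibia and fibula, and loss of group 13 the foot. Adult skeletal cells keep part of this regional pattern of expression.

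The libraries held 9902613 to 20746804 reads, of which 45 to 2456 came from Hox genes. Levels are normalized counts (the reads of a gene over a scaling factor of its library), and are per kb of exon only where stated. Lepr, the gene of the sorted receptor, had between 14455 and 102235 normalized counts. One library stood apart. Middle-aged replicate 3 had the lowest Lepr value, the fewest reads, a size factor of 0.364 and 32.6% of its reads in antibody genes, against 0.107% to 16.5% in the other libraries. A gene without a read could still have had up to 3 reads there, which is 8.25 normalized counts, against 1.79 to 3.37 in the other libraries. The comparisons of the Hox genes are given with and without it.

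Hox expression was uneven among the clusters. Hoxa, on chromosome 6 (GRCm38), took 6710 of the 11460 Hox reads, and each of its 11 genes had a read. Hoxc, on chromosome 15 from 102921103 to 103036852, took 3734 reads and also had reads for all of its 9 genes. Hoxd, on chromosome 2 from 74668310 to 74765142, took 755 reads, and 4 of its 9 genes had none. Hoxb, on chromosome 11 from 96194316 to 96368256, took 261 reads over its 10 genes, with 3 genes at 0. Hoxa and Hoxc together made up 80.4% to 94.8% of the summed Hox level per kb of exon in each library.

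**Figure D1:**
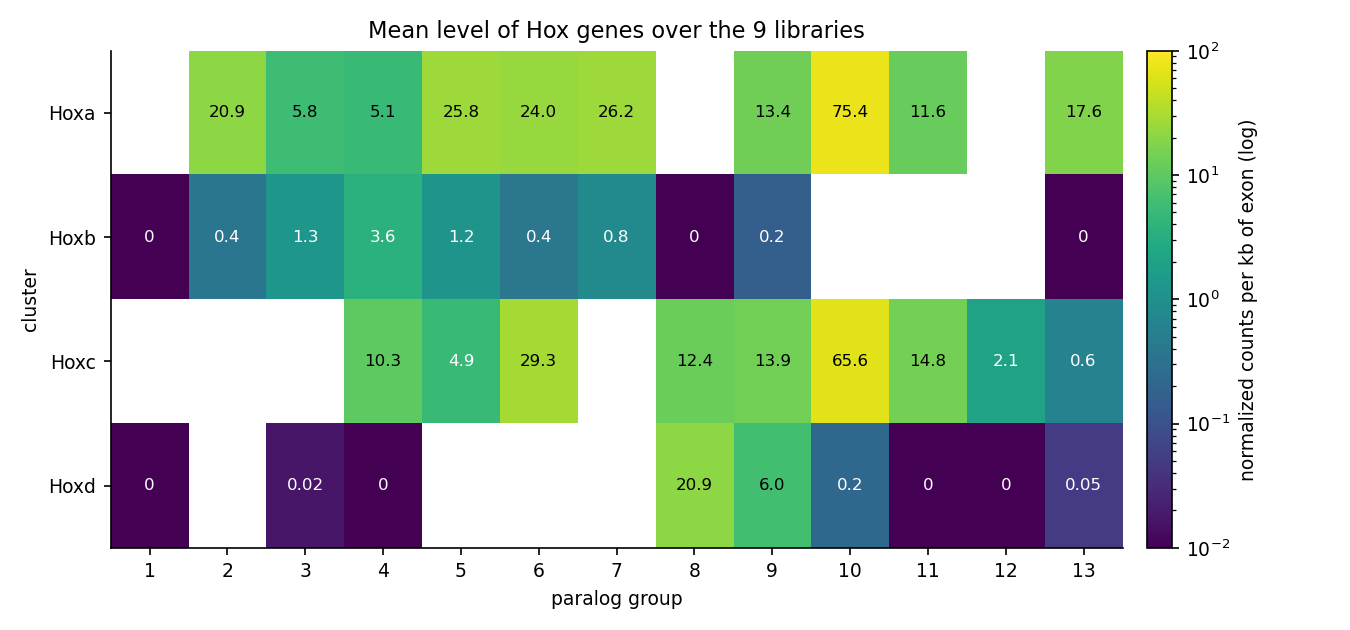
Mean level of Hox genes over the 9 libraries, in normalized counts per kb of exon (log color scale), by cluster (rows) and paralog group (columns). White squares are places without a Hox gene or with one not reported here, and genes without a read take the lowest color. Hoxa10 at 75.4 and Hoxc10 at 65.6 stand out, the Hoxb row stays at or below the 3.64 of Hoxb4, and in Hoxd the level is 20.9 for Hoxd8, 6.05 for Hoxd9 and at most 0.214 for the others.

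Of the 39 genes, 7 had no read in any library. These were Hoxb1, Hoxb8, Hoxb13, Hoxd1, Hoxd4, Hoxd11 and Hoxd12. The 32 others had a read in at least 1 library, and 8 of them in all 9 libraries, among them Hoxa3, Hoxa7, Hoxa9, Hoxa10, Hoxb4, Hoxc8 and Hoxd8. A mean of at least 10 normalized counts, the limit for testing, was reached by 19 genes. They were 10 of the 11 Hoxa genes (not Hoxa4), 7 of the 9 Hoxc genes (not Hoxc12 and Hoxc13), Hoxd8 and Hoxd9. No Hoxb gene reached it. The highest Hoxb gene was Hoxb4 with 109 reads, and the other Hoxb genes had 0 to 72. Most of the 29 reads of Hoxc12 came from treated middle-aged replicate 1, which had 17.4 normalized counts of it. Exons that different genes share limit Hoxd3, Hoxd4 and Hoxb3, which share 62.8%, 52.3% and 52.9% of their exon bases with other annotated genes, so their low counts are uncertain. Among the tested genes the largest shares were 35.0% in Hoxa11, 27.1% in Hoxa3 and 20.4% in Hoxa7. Whether reads were counted by strand is not given, so these counts are limited as well.

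The Hoxd cluster had a sharp border. Hoxd8 had 614 reads and Hoxd9 had 135, while the next gene on the high-numbered side, Hoxd10, had 4 reads, all in young libraries. Beyond it, Hoxd11 and Hoxd12 had 0 and Hoxd13 had 1. On the other side, Hoxd4 had 0 reads, Hoxd3 had 1 and Hoxd1 had 0. Of the genes at the border, Hoxd8 and Hoxd9 shared no exon base with another gene, and Hoxd10 shared 5.73%. Group 10 was thus read from Hoxa10 (2602 reads) and Hoxc10 (1378 reads) and hardly from Hoxd10. The sequences upstream of the genes at this border, and of the most expressed member, are shown to set expressed and nearly silent neighbours side by side. They come from RefSeq (GRCm38.p6), end 1 base before the RefSeq start, and read 5′ to 3′ on the gene's strand. For Hoxd9 the last 36 bases were left out because GENCODE starts the gene there. Capitals mark the TATA box (TATAAA), the CCAAT box and the GC box (GGGCGG), searched on both strands, and these motifs do not overlap each other. The windows are chr2:74704365-74704614 for Hoxd8, chr2:74697513-74697726 for Hoxd9, chr2:74691641-74691890 for Hoxd10, all on the plus strand, and chr6:52240855-52241104 on the minus strand for Hoxa10.
Hoxd8: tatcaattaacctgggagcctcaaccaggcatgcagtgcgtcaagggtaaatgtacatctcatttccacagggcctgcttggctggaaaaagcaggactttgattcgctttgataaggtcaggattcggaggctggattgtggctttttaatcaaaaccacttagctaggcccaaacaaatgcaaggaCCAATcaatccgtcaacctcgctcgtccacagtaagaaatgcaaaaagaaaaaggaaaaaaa
Hoxd9: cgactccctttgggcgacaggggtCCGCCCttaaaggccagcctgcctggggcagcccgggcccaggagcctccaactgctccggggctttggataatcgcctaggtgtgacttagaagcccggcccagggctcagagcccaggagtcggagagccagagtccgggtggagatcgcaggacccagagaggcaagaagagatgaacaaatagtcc
Hoxd10: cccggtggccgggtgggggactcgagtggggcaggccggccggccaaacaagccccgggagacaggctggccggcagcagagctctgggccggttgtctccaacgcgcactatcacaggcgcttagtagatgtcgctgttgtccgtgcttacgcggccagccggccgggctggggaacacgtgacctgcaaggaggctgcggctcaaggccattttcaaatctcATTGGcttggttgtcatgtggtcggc
Hoxa10: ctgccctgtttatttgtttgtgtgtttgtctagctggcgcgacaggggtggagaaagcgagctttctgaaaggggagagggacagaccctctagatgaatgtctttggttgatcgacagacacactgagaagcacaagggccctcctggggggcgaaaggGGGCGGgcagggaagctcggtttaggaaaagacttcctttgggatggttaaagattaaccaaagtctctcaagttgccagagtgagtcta

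Hoxd10, with 4 reads, had 20 CpG sites in its 250 bases, against 6 for Hoxd8 with 614 reads. The Hoxd9 window had 10 in 214 bases. Hoxa10, with 2602 reads, had 7 in the printed window and 20 in its other listed promoter, chr6:52234940-52235189, which is not printed and also held 1 CCAAT and 1 TATAAA. Hoxd8 and Hoxd10 each held 1 CCAAT, which lay 62 to 58 bases before the start in Hoxd8 and 26 to 22 bases before it in Hoxd10, there on the other strand. Hoxd9 and Hoxa10 each held 1 GGGCGG, and none of the printed windows held TATAAA. Of the 32817 promoter windows of 250 bases in the table, 33.8% held CCAAT, 32.7% GGGCGG and 12.4% TATAAA. A promoter was listed for 22 of the 39 Hox genes. CpG counts ranged from 2 to 31 in the 9 of these with at most 5 reads (median 12) and from 3 to 35 in the 13 with over 100 reads (median 13), so the ranges overlapped. The median over all windows was 6.

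Group 10 led the Hox genes. Hoxa10, on chromosome 6, and Hoxc10, on chromosome 15, averaged 75.4 ± 47.0 and 65.6 ± 32.3 normalized counts per kb (SD, n = 9 libraries). Each of the other genes stayed at or below 29.3. One of this pair was the highest Hox gene in 8 of the 9 libraries, and Hoxc10 was above Hoxa10 in 5, so the order of the pair was not settled. Hoxc6 followed with 29.3 ± 15.6 per kb and was below Hoxc10 in 8 of 9 libraries. From there down to Hoxa2, neighbours in the order changed places between libraries: Hoxc6 was above Hoxa7 in 5, Hoxa7 above Hoxa5 in 5, Hoxa5 above Hoxa6 in 4 and Hoxa6 above Hoxa2 in 4 of 9 libraries. The exception at the top was middle-aged replicate 3.

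By library, in normalized counts, Hoxa10 had 216, 104 and 199 in treated middle-aged, 155, 377 and 8.25 in middle-aged and 263, 412 and 483 in young mice. The young libraries were all above the treated ones, and the middle-aged libraries spanned both. Hoxc10, a gene of the hindlimb bud in mouse embryos, had 185, 83.5 and 185 in treated middle-aged, 121, 76.8 and 0 in middle-aged and 158, 170 and 148 in young mice. All young libraries were above all middle-aged ones, while the treated libraries lay on either side of the young ones. Hoxc11, its neighbour with a role in the same region, had 33.6, 25.5 and 19.5 in treated middle-aged, 12.0, 20.0 and 0 in middle-aged and 56.8, 67.6 and 33.7 in young mice. Young libraries were above both other conditions, although the lowest young and the highest treated library nearly touched. Hoxa13, which patterns the foot, had 44.5, 64.9 and 48.3 in treated middle-aged, 21.4, 24.5 and 0 in middle-aged and 94.1, 25.1 and 69.6 in young mice. It had 457 reads in all, and the middle-aged libraries were below all others.

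The remaining genes of the 10 highest belong to middle and low-numbered groups, used mainly in the trunk and neck of the embryo. Hoxc6 had 88.4, 64.9 and 71.9 in treated middle-aged, 111, 18.9 and 0 in middle-aged and 103, 92.7 and 84.2 in young mice. Hoxa5 had 70.3, 63.4 and 21.6 in treated middle-aged, 24.8, 97.9 and 0 in middle-aged and 28.4, 41.3 and 87.6 in young mice. Hoxa6 had 36.1, 14.7 and 3.08 in treated middle-aged, 34.3, 1.11 and 0 in middle-aged and 16.9, 58.0 and 24.7 in young mice. In these genes the conditions overlapped, and single libraries of a condition differed several-fold. Hoxa7 had 91.6, 95.1 and 51.4 in treated middle-aged, 121, 70.1 and 8.25 in middle-aged and 54.2, 125 and 62.9 in young mice. Hoxa2, which patterns the skeleton of the pharyngeal arches, had 10.97, 24.0 and 21.6 in treated middle-aged, 16.3, 43.4 and 0 in middle-aged and 128, 31.1 and 59.5 in young mice. Hoxd8 had 74.9, 93.5 and 70.9 in treated middle-aged, 41.1, 50.1 and 19.3 in middle-aged and 79.9, 52.1 and 34.8 in young mice. Hoxa7 and Hoxd8 kept reads in middle-aged replicate 3, and Hoxd8 was higher in all treated than in all middle-aged libraries.

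**Figure D2:**
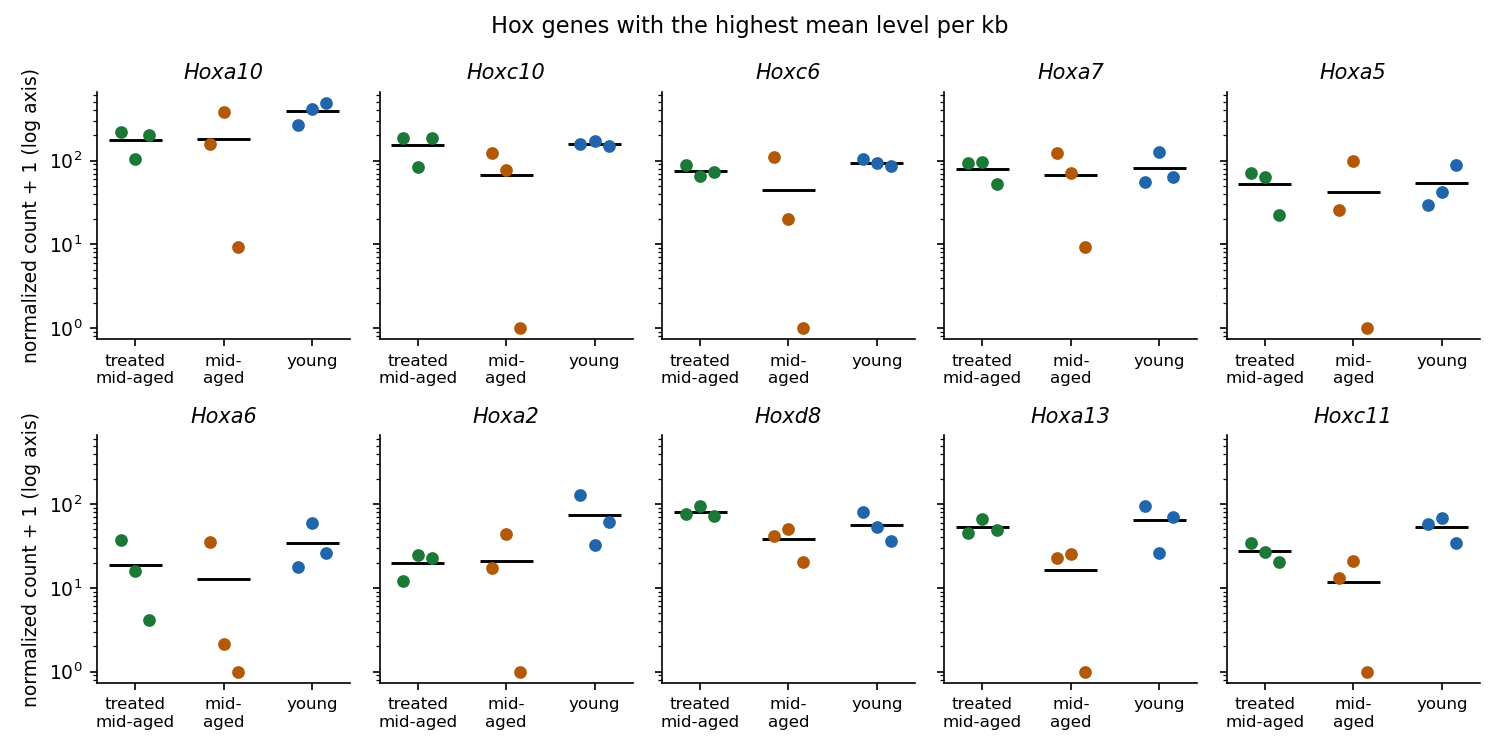
Normalized counts plus 1 (log axis) of the 10 Hox genes with the highest mean level per kb, in treated middle-aged, middle-aged and young libraries (1 point each, line at the mean of the 3). The lowest point of each panel is middle-aged replicate 3, at 0 for 7 of the 10 genes.

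Groups 9 to 13, the high-numbered ones, made up 52.6%, 40.3% and 59.0% of the summed level per kb in treated middle-aged, 41.8%, 54.8% and 20.4% in middle-aged and 50.4%, 55.2% and 61.1% in young mice, so the conditions overlapped. The treated mean was 50.6% ± 9.53 and the young mean 55.5% ± 5.35 (SD, n = 3 each), and the middle-aged mean without replicate 3, whose share rests on 45 Hox reads, was 48.3%. Group 10 alone made up 20.8% to 40.1% in treated middle-aged, 6.10% to 39.98% in middle-aged and 29.8% to 37.5% in young mice. Group 11, which shapes the tibia and fibula, made up 4.05% to 5.65% in treated middle-aged, 0% to 4.79% in middle-aged and 7.51% to 10.4% in young mice, so all 3 young libraries were above the 6 others. Hoxa11 and Hoxc11 supplied all reads of that group, since Hoxd11 had none. Hoxa11 shares 35.0% of its exon bases with Hoxa11os on the other strand, while Hoxc11 shares none. Hoxa11os had 3.55, 5.38 and 14.6 normalized counts in young mice, 0.77 in treated middle-aged replicate 2 and no read elsewhere.

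Age was compared first, middle-aged against young. Of the 19 tested Hox genes 0 passed an adjusted p under 0.05 in limma (Benjamini-Hochberg over 14998 genes), where 452 genes (3.01%) passed over the whole table. The adjusted p-values of the Hox genes ran from 0.135 to 0.761. At an unadjusted p under 0.05, 5 Hox genes were found, Hoxa2, Hoxa11, Hoxa13, Hoxc9 and Hoxc11, all lower in middle-aged mice, where 13% of all genes were lower at that p. On recovered reads, edgeR and DESeq2 also gave 0 Hox genes past an adjusted p of 0.05, where they called 2.29% and 11% of all genes, with 1 and 3 Hox genes at an unadjusted p under 0.05. The log2 fold change, taken on normalized counts plus 1, was below 0 for 18 of the 19, where 53.6% of all genes were below 0. The median over the 19 was -1.85, against -0.08 over all genes, and with each library scaled by 15 genes of the LepR+ stromal niche it was -1.07, with 14 of 19 below 0, against 1.34 over all genes. The lowest were Hoxa11 (-3.10 ± 1.26, SE), Hoxc11 (-2.99 ± 1.06) and Hoxc10 (-2.91 ± 1.41), with adjusted limma p-values of 0.174, 0.135 and 0.240. Hoxa11 and Hoxc9, outside the 10 highest genes, are named here after their values were seen. The libraries of the 2 conditions did not overlap, with middle-aged mice lower, for 4 genes, Hoxa13, Hoxc9, Hoxc10 and Hoxc11, where 15.1% of all tested genes were lower without overlap.

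Much of this rested on middle-aged replicate 3. It was the lowest library for 18 of the 19 genes and had no read for 12 of them. Without it, the median log2 fold change against young was -0.64 over 20 tested Hox genes, against -0.03 over all genes. Of these 20 genes 15 were below 0, and 0 passed the test, where 5.5% of all genes did (lowest adjusted limma p 0.184). The mean of the other middle-aged libraries was below the young mean for 14 of the 19 genes and above it for 5. Without middle-aged replicate 1, in contrast, 3 of 19 genes passed as lower in middle-aged mice in limma, where 8.34% of all genes did. They were Hoxa11 (log2 fold change -4.41, adjusted p 0.0336), Hoxa6 (-4.37, adjusted p 0.0388) and Hoxc6 (-4.40, adjusted p 0.0264). Over all settings and left-out libraries their adjusted p reached 0.407, 0.592 and 0.565, from limma and, on reads, from edgeR and DESeq2.

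Pan-leukocyte and neutrophil markers were higher in middle-aged mice. Of the 8 pan-leukocyte markers 8 passed the limma test as higher in middle-aged mice, with a summed level of 15183 to 34038 normalized counts against 4301 to 6656 in young mice, and none of them was at 0 in any library. Of 10 neutrophil markers 9 passed as higher. Of 9 erythroid markers 0 passed, with a summed level of 5645 to 7708 in middle-aged and 3882 to 6995 in young mice. Summed over each list, skeletal markers were highest in young mice, as was the summed Hox level. Single markers differed: in treated against young mice 7 of the 8 osteoblast markers were below 0 and 1 was above 0. Without middle-aged replicate 3, 4 of them passed in limma as lower in treated mice and 1 as higher. The 8 osteoblast markers summed to 21683 to 23676 in treated middle-aged, 4321 to 17706 in middle-aged and 37458 to 46727 in young mice, and 1 passed as lower in middle-aged than in young mice (3 without middle-aged replicate 3). The 8 chondrocyte markers summed to 1463 to 1730 in treated middle-aged, 217 to 2306 in middle-aged and 3308 to 18177 in young mice, and 4 passed as lower in middle-aged mice (6 without that replicate). The 15 genes of the LepR+ stromal niche, such as Cxcl12 and Kitl, had log2 fold changes below 0 for all 15, with a median of -1.42 and 0 past the test, or 12 past it as lower without middle-aged replicate 3. Their summed level was 120482 to 473404 in middle-aged and 699962 to 865124 in young mice. The part of these cell types in the Hox values was not tested.

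Set on the niche genes, the summed Hox levels of the conditions overlapped. As deposited, all Hox genes together had 1134, 931 and 1016 normalized counts in treated middle-aged, 999, 1055 and 124 in middle-aged and 1346, 1469 and 1546 in young mice, and the young libraries were above the 6 others. When each library was scaled to the same level of the 15 niche genes, the sums were 1126, 887 and 805 in treated middle-aged, 1024, 1319 and 483 in middle-aged and 866, 1050 and 896 in young mice. The means were then 939 ± 167, 942 ± 424 and 937 ± 98.4 in this order (SD, n = 3 each). Middle-aged replicate 3 stayed the lowest library, and without it the middle-aged mean was 1172, above the means of both other conditions, so the near-equal means rest on that library. The niche genes were chosen with earlier results known, and this scaling shifts the median log2 fold change of all genes to 1.34 between middle-aged and young mice.

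**Figure D3:**
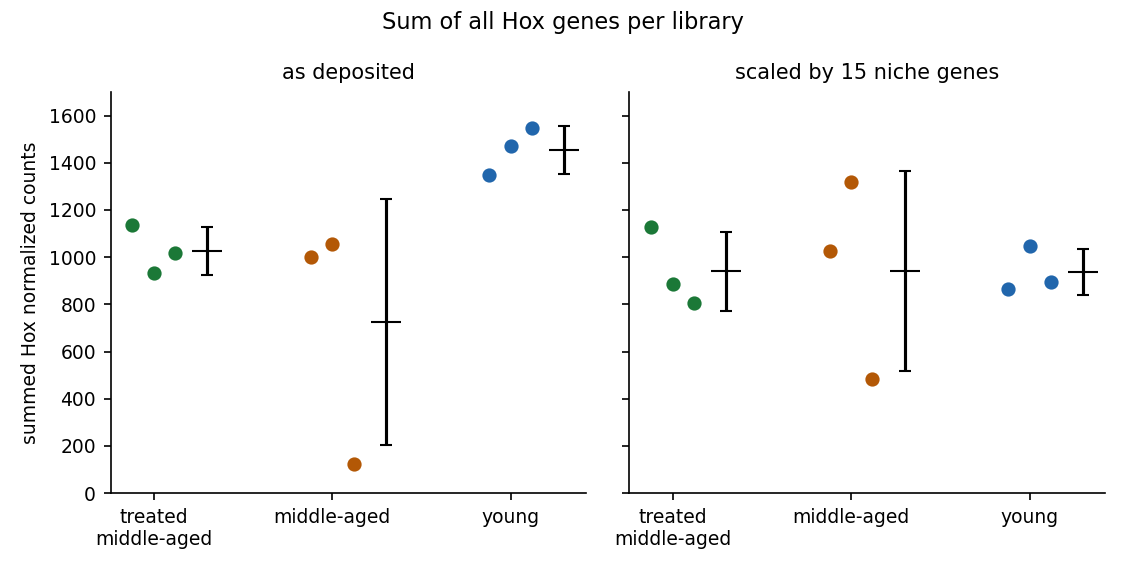
Sum of the normalized counts of all 39 Hox genes per library, as deposited (left) and after scaling each library by 15 niche genes (right), in treated middle-aged, middle-aged and young mice (points: libraries; bars: mean ± SD of 3). As deposited, the young libraries are at 1346 or more and all others at 1134 or less, whereas the conditions overlap after scaling, with means between 937 and 942 (1172 in middle-aged mice without replicate 3).

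Salicylate was compared next, treated middle-aged against middle-aged mice. It shares the middle-aged libraries with the comparison above. In limma 0 of 19 Hox genes and 0 of 14998 genes (0%) passed an adjusted p under 0.05, and the adjusted p-values of the Hox genes were 0.496 to 0.912. Hoxa13 was higher in treated mice at an unadjusted p under 0.05, as were 6.38% of all genes. With edgeR and DESeq2 0 Hox genes passed the adjusted test, where 0% and 0.287% of all genes did, and 0 and 1 were at an unadjusted p under 0.05. The log2 fold change was above 0 for 18 of the 19 genes (54.7% of all genes), with a median of 1.41, against 0.09 over all genes. Without middle-aged replicate 3 the median was 0.17, against 0.005 over all genes, and 11 of 20 Hox genes were above 0. All treated libraries were above all middle-aged ones for 2 genes, Hoxa13 and Hoxd8, where 8.19% of all tested genes were higher without overlap. Hoxa13 averaged 52.6 in treated and 15.3 normalized counts in middle-aged mice (log2 fold change 2.67 ± 1.14, adjusted limma p 0.496), and Hoxd8 averaged 79.7 and 36.8 (1.19 ± 0.55, adjusted limma p 0.496). Without middle-aged replicate 3 these fold changes were 1.15 and 0.79.

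Treated middle-aged mice were also set against young mice, which are the same young libraries as above. Here 0 of 19 Hox genes passed in limma, where 31 of 14998 genes (0.207%) did, and 0 were at an unadjusted p under 0.05, where 6.91% of all genes were. With edgeR and DESeq2 0 passed the adjusted test, where 0.0133% and 1.99% of all genes did, and 0 and 1 were at an unadjusted p under 0.05. The median log2 fold change was -0.34, against -0.01 over all genes, with 15 of 19 below 0 (50.7% of all genes). With niche gene scaling it was 0.13, with 13 of 19 above 0, against a median of 0.48 over all genes. Without middle-aged replicate 3, 16 of 20 tested genes were below 0, with a median of -0.35 against -0.01 over all genes. The lowest adjusted limma p of a Hox gene was then 0.153. Hoxa10, Hoxa2, Hoxc9 and Hoxc11 were lower in all treated than in all young libraries, 4 of 19, where 9.9% of all tested genes were lower without overlap. Hoxa10 averaged 173 ± 60.3 normalized counts in treated and 386 ± 112 in young mice (SD, n = 3 each). Its log2 fold change was -1.18 ± 1.05 (SE, adjusted limma p 1, or 0.153 without middle-aged replicate 3). Hoxc10 differed little in its means, 151 ± 58.5 in treated against 159 ± 10.9 in young mice (SD, n = 3 each, log2 fold change -0.16). Its SE of 1.41 comes from a spread shared by all conditions. That spread includes the 0 of middle-aged replicate 3, which is in neither condition compared here.

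**Figure D4:**
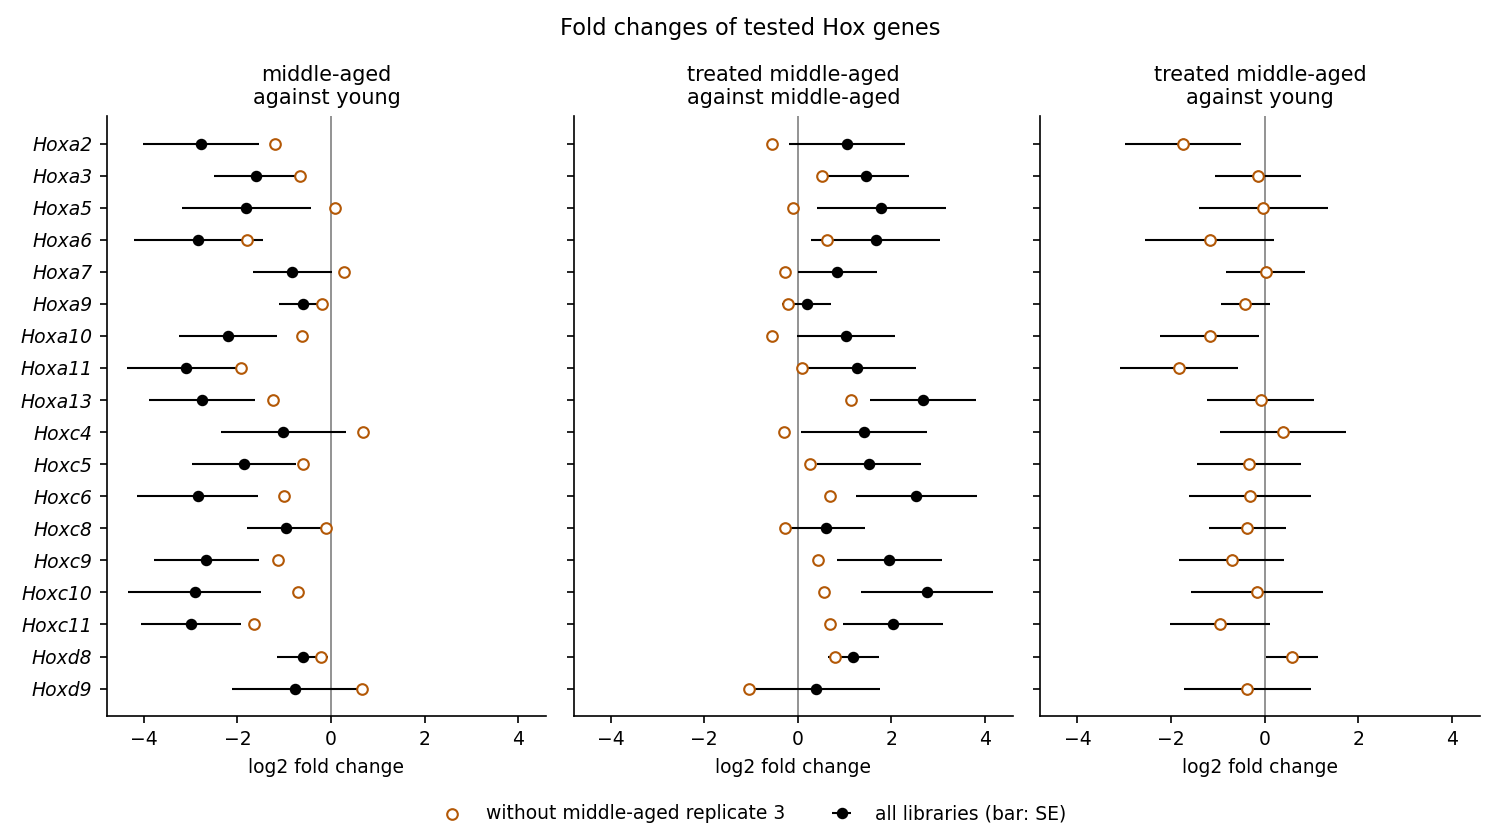
Log2 fold changes of 18 of the 19 tested Hox genes, on normalized counts plus 1, in the 3 comparisons (filled points with SE bars: all 9 libraries; open points: without middle-aged replicate 3). The filled points sit below 0 for all 18 in middle-aged against young. The open points move toward or past 0, to a median of -0.64 over 20 tested Hox genes, against -0.03 over all genes.

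Hox proteins bind DNA together with partner homeodomain proteins of the PBX, MEIS and PKNOX families. All 9 cofactor genes had reads, and 8 were tested. None passed in limma in any of the 3 comparisons. In middle-aged against young 0 of 8 had a log2 fold change above 0, where 46.4% of all genes were above 0, and the median was -0.80, or -0.32 without middle-aged replicate 3. Over all genes these medians were -0.08 and -0.03. Pknox2 had 379, 280 and 396 normalized counts in treated middle-aged, 229, 168 and 168 in middle-aged and 451, 462 and 287 in young mice. The middle-aged libraries of Pknox2 were below all others (log2 fold change against young -1.07 ± 0.30, adjusted limma p 0.0781). Pknox2 did pass with DESeq2 (adjusted p 0.0186), where 11% of all genes did. In limma it passed without middle-aged replicate 1 (adjusted p 0.0358), where 8.34% of all genes passed as lower. Pbx2 averaged 270, 200 and 262, and Pknox1 averaged 282, 175 and 191 normalized counts in treated middle-aged, middle-aged and young mice.

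Genes that tell hindlimb from forelimb were checked against the source of the cells. Pitx1, which specifies the hindlimb, had a read in all 9 libraries, at 2.07 to 16.7 normalized counts per kb. Tbx5, which starts the forelimb bud in embryos, was read in 8 libraries and averaged 8.38 ± 4.13 per kb, against 9.29 ± 5.27 for Pitx1 (SD, n = 9). Tbx4, its hindlimb counterpart, was lower at 2.07 ± 2.13 per kb and was read in 7 libraries (it was singled out after its values were seen). Lhx2, a gene of the early limb bud, averaged 9.24 ± 5.01 per kb, and Isl1, which acts in hindlimb initiation, 3.02 ± 2.72. Of the 7 genes of this list 4 were tested, and 0 passed in any comparison. Pitx1 averaged 21.4 in treated middle-aged, 14.5 in middle-aged and 38.0 normalized counts in young mice (middle-aged against young, log2 fold change -1.50 ± 0.81, adjusted limma p 0.283).

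Other transcription factors of limb patterning included genes well above the Hox genes, such as Tbx15 at 261 ± 111 and Prrx1 at 233 ± 84.1 normalized counts per kb (SD, n = 9). Of 26 genes 19 were tested, and 2 passed, Tbx15 and Dlx5, both lower in middle-aged than in young mice. Tbx15, which is needed for limb and skull bones of normal size, had 894, 746 and 816 normalized counts in treated middle-aged, 750, 654 and 470 in middle-aged and 1729, 1350 and 1398 in young mice. All young libraries were above all others (log2 fold change, middle-aged against young, -1.27 ± 0.23, adjusted limma p 0.0239). Dlx5, an osteoblast regulator, averaged 241, 114 and 332 normalized counts in treated middle-aged, middle-aged and young mice (-1.59 ± 0.37, adjusted limma p 0.0465). Leaving out single libraries ended the call of Tbx15 in 4 of 9 cases (middle-aged replicate 2 and each young library, adjusted p up to 0.105) and that of Dlx5 in 7 of 9 (all but middle-aged replicates 1 and 3, up to 0.168). Of 15 other settings, 5 ended the call of Tbx15 and 8 that of Dlx5, among them edgeR (adjusted p 0.0636) and the replicate block (0.0755) for Dlx5. Scaled by the niche genes, the log2 fold changes of Tbx15 and Dlx5 were 0.14 and -0.19, and neither was called. In treated middle-aged against young mice Tbx15 did not pass in limma with all libraries. It passed there as lower without middle-aged replicate 3 (log2 fold change -0.86, adjusted limma p 0.0238) and in limma on those 2 conditions alone (adjusted p 0.0220). With DESeq2 it also passed (adjusted p 0.0416), where 1.99% of all genes did. Prrx1, the marker of limb mesenchyme, averaged 2299, 1847 and 3595 in the same order, and Shox2, which lengthens the femur in mouse embryos, 597, 302 and 712, and neither passed with all libraries. In middle-aged against young, both passed as lower in limma without middle-aged replicate 1 (adjusted p 0.0287 for Prrx1 and 0.0404 for Shox2). There 8.34% of all genes passed as lower. Without middle-aged replicate 3, where Shox2 was at 38.5, their adjusted limma p-values were 0.0763 and 0.193.

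Positional genes of the head, trunk and gut were mostly below the limit for testing. Of 17 genes 3 were tested, and Otx2, Cdx1, Cdx2, Cdx4, Gsx1 and Pdx1 had no read. Six2, a homeobox gene of head and kidney development, averaged 63.9, 27.6 and 37.0 normalized counts in treated middle-aged, middle-aged and young mice, and did not pass in any comparison.

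Hox genes are kept active by MLL complexes, which methylate histone H3 at promoters, and silent by Polycomb complexes. All 13 genes of the activator list and all 17 of the Polycomb list were tested, and 0 passed in limma with all libraries in any comparison. The median log2 fold changes in middle-aged against young were 0.12 and -0.36, against -0.08 over all genes. Calls appeared in this comparison when single libraries were left out. Without middle-aged replicate 1, Psip1 (adjusted limma p 0.0231) and Bmi1 (0.0229) passed as higher and Hdac3 (0.0352) as lower in middle-aged mice. There 8.34% of all genes passed as lower, the share that belongs beside Hdac3. The share that passed as higher, for Psip1 and Bmi1, is not given here. Leaving out single libraries called up to 2126 genes. Without middle-aged replicate 3 Cbx7 passed as lower (0.0341), where 5.5% of all genes passed in either direction. With niche gene scaling Wdr5 and Ezh2 passed as higher (0.0474 and 0.0478), where 2490 of 15378 genes passed in either direction. Psip1, Hdac3, Cbx7, Wdr5 and Ezh2 are named after their values were seen. Hdac3 was on the activator list but is not part of an MLL complex, and its action on Hox genes was not tested. Kmt2a, which encodes MLL1, averaged 1791 in treated middle-aged, 1328 in middle-aged and 1632 normalized counts in young mice, and Kmt2d averaged 1245, 1078 and 984. The demethylases of the Polycomb mark averaged 926, 918 and 824 (Kdm6a) and 1170, 1063 and 1623 (Kdm6b). Among the repressors Phc3, Suz12 and Rnf2 averaged 1181, 849 and 730 in treated middle-aged, 1013, 845 and 785 in middle-aged and 1299, 684 and 794 in young mice. Bmi1 was the exception in its spread, with 522, 464 and 673 normalized counts in treated middle-aged, 668, 1362 and 4305 in middle-aged and 766, 667 and 620 in young mice. The 4305 stood in middle-aged replicate 3, and the fold change did not pass in limma (middle-aged against young, 1.21 ± 0.52, adjusted p 0.195, or 0.48 ± 0.29 and 0.367 without that library). With DESeq2 it passed (adjusted p 0.0232), as did 11% of all genes.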

How the data were processed

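Normalized counts of 9 libraries of LepR+ cells were used. According to the methods, the authors used STAR on mm10 (GRCm38), featureCounts over exons and then the scaling of DESeq2. Versions, gene annotation and strandedness are not given in the sources used here. The deposited signal values are reads divided by a size factor, without division by length and without a log. Reads were recovered from the steps between values, with 99.99% to 100% of a library's values whole within 0.1. All 9 columns were mapped to a condition by their labels.

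Comparisons used limma 3.58.1 in R 4.3.3 on log2(normalized count + 1), with a trend on the mean, for genes with a mean of at least 10 over all libraries. The fit held all 9 libraries, with the spread of each gene estimated over all conditions, and a call needed a Benjamini-Hochberg adjusted p under 0.05. Levels per kb used merged exon lengths from GENCODE M21. Values per library are given for called Hox genes and for the 10 with the highest mean per kb, and up to 4 genes are named per list. The members and lists were chosen with earlier results of these data known. Alternatives were other pseudocounts, filters and scalings, a replicate block, fits of 2 conditions, count tests on whole reads (DESeq2 1.42.0, edgeR 4.0.16), other exon lengths and leaving out each library. One alternative, the length without exon bases shared with other genes, was chosen after the values were known. Some items are not reported here. Scripts were tested on simulated data. Python 3.11.15, pandas 2.3.3, numpy 2.4.6 and matplotlib 3.10.9 were also used. The limits for genes at 0 cover counting error only.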

Additional observations from a re-analysis of the deposited data

How the results depend on the processing

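The count of Hox genes called was 0 in each comparison under every alternative run, with 1 exception. Leaving out single libraries gave 0 to 3 in middle-aged against young mice, and the 3 came without middle-aged replicate 1. Over all genes the counts moved more. In middle-aged against young mice 452 genes (321 higher, 131 lower) stood against 46 to 2490 under other settings and 28 to 2126 without single libraries. Niche gene scaling gave 2460 higher and 30 lower, total count scaling 60 and 8. In treated against untreated middle-aged mice 0 stood against 0 to 43, and in treated middle-aged against young mice 31 stood against 0 to 429, or 4 to 379 without single libraries. Of 9 same-numbered correlations, 1 was over 0.1, the limit set for pairing (range -0.01 to 0.12). Different-numbered libraries ran from -0.10 to 0.05. Whether the replicate numbers pair the samples is therefore not settled, and the main fit used no pairing. The replicate block gave 284 genes in middle-aged against young mice and 0 Hox genes.

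The share of groups 9 to 13 moved by less than 1 SD in all 18 alternatives. Of 705 alternative fold changes of the 10 highest Hox genes, 33 changed sign, and all 33 were without a call; the cause was not tested. With niche gene scaling the log2 fold changes were 0.53 (Hoxa7) and 0.77 (Hoxd8) in middle-aged against young, -0.022 (Hoxa7) in treated against middle-aged, and 0.33 (Hoxc10), 0.17 (Hoxc6), 0.46 (Hoxa5) and 0.40 (Hoxa13) in treated against young mice. With edgeR they were -0.086 (Hoxa10) and -0.14 (Hoxa2) in treated against middle-aged, and -0.0093 (Hoxa7) and 0.0068 (Hoxa5) in treated against young mice. DESeq2 gave -0.072 (Hoxa10), -0.14 (Hoxa2) and -0.025 (Hoxa7) in the same comparisons. In treated against young mice total count scaling gave 0.0041 (Hoxa5), and leaving out antibody genes gave 0.055 (Hoxa5) and 0.0027 (Hoxa13). Without single libraries the range in middle-aged against young mice was -1.57 to 0.29 for Hoxa7 and -3.24 to 0.077 for Hoxa5. In treated against middle-aged mice it was -0.55 to 2.13 for Hoxa10, -0.26 to 1.60 for Hoxa7, -0.11 to 3.21 for Hoxa5 and -0.55 to 2.18 for Hoxa2. In treated against young mice it was -0.35 to 0.22 for Hoxc10, -0.21 to 0.38 for Hoxa7, -0.38 to 0.50 for Hoxa5 and -0.63 to 0.30 for Hoxa13.

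Total count scaling shifted the median of all genes to -0.56 in middle-aged against young mice and leaving out antibody genes to -0.29. Niche gene scaling shifted it to 1.34 there, to -0.84 in treated against middle-aged and to 0.48 in treated against young mice. Depth limits the low Hox genes: 1 Hox read was 2.75 normalized counts in middle-aged replicate 3. Its Hox levels rest on 45 reads.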

Other observations

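The clusters also hold 46 other annotated genes, mostly noncoding, and 21 of them had a read. Of these 5 reached a mean of 10 normalized counts and were tested, and 0 passed in any comparison. Hotairm1, an antisense RNA in Hoxa, was read in all 9 libraries, with 25.2, 24.0 and 121 normalized counts in treated middle-aged, 17.1, 22.3 and 2.75 in middle-aged and 14.2, 35.3 and 31.4 in young mice. All treated libraries were above all middle-aged ones, but the value of 121 stood in 1 library (log2 fold change 1.89 ± 0.94, adjusted limma p 0.496). Hotairm1 shares 43.1% of its exon bases with other genes. Hoxaas2, Hoxaas3 and Gm15050, also in Hoxa, averaged 25.99, 17.3 and 13.2 in treated middle-aged, 7.14, 13.2 and 10.5 in middle-aged and 2.81, 17.1 and 13.9 in young mice. Hotair, in Hoxc, had 34 reads in 4 libraries, with 1.94, 5.41 and 23.6 normalized counts in treated middle-aged and 2.75 in middle-aged replicate 3. Most of its level stood in treated middle-aged replicate 3, and with a mean of 3.75 it was not tested. In Hoxb the pseudogene Gm11539 was the most read entry, with 31.0, 33.2 and 27.7 in treated middle-aged, 45.4, 51.2 and 162 in middle-aged and 32.9, 36.5 and 46.0 in young mice, in contrast to the Hoxb genes around it.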
